A study of Mus musculus with 12 samples.

Results

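The enzymes that write and erase methylated cytosine in DNA were followed through 4 groups of mouse mesenchymal stem cell libraries. The members were the DNA methyltransferase genes Dnmt1, Dnmt3a and Dnmt3b and the ten-eleven translocation genes Tet1, Tet2 and Tet3, taken by gene name from a table of expression values. All 6 names had 1 row among the 21881 genes of the table. Of the 6, 5 reached 1 FPKM in at least 3 libraries and were tested together with the other genes that did so, 11801 in all. Tet1 stayed below that level in every library. FPKM counts sequenced fragments relative to transcript length and to all fragments mapped in a library, so levels of different genes are set side by side here per length of transcript.

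The cells were immortalized clonal lines of mesenchymal stem cells, the fibroblast-like cells of adult bone marrow, on a C57BL/6 background. WT_siCtrl cells carried the Dicer f/f genotype and KO_siCtrl cells the Dicer -/- genotype, and both received a nontargeting control siRNA. KO_let-7g cells were Dicer -/- cells given a synthetic duplex of the microRNA let-7g, and KO_siNr6a1 cells were Dicer -/- cells given an siRNA against Nr6a1, an orphan nuclear receptor gene. Dicer is the enzyme that cuts microRNA precursors, so the Dicer -/- cells lack the usual path to mature microRNAs and a let-7g duplex bypasses it. All 4 groups were transfected at 20 nM and harvested 48 hours later, and each held 3 libraries of polyadenylated RNA, numbered 0, 1 and 2. How many clonal lines each genotype had is not stated in the labels, and genotype and line cannot be told apart. Nothing there says that the libraries of a group came from separate cultures, so a p-value here rests on library-to-library spread that may be only technical. In the GENCODE M21 annotation Dnmt1 lies on chromosome 9, Dnmt3a on 12, Dnmt3b on 2, Tet1 on 10, Tet2 on 3 and Tet3 on 6.

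Dnmt1 copies the methylation pattern onto the new strand behind the replication fork, with Uhrf1 as the factor that recognises half-methylated CpG sites. Dnmt3a and Dnmt3b set methylation on unmethylated sites, assisted in germ cells and early embryos by the inactive relative Dnmt3l. The TET enzymes oxidise 5-methylcytosine to 5-hydroxymethylcytosine and further forms, which are then lost by dilution or by base excision repair, and they need 2-oxoglutarate and iron to do so. Members of the miR-29 family are known regulators of Dnmt3a, Dnmt3b and the TET genes, miR-148 has been tied to Dnmt genes, and miR-22, miR-26 and miR-101 have been tied to TET or Dnmt genes.

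The let-7g duplex is the one microRNA that the study put back, and the miR-29 and miR-148 sequences are shown because their seeds were matched in the members. Sequences are RefSeq's, from the GRCm38.p6 table, in which 6 of the 7 planned microRNAs had an entry. Capitals mark the seed, bases 2 to 8, and the 3 miR-29 forms share 1 seed.
let-7g-5p: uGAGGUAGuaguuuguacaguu
miR-29a-3p: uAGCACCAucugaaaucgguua
miR-29b-3p: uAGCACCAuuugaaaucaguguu
miR-29c-3p: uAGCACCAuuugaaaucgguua
miR-148a-3p: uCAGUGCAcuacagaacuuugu

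Matches to these seeds were searched on the sense strand of the 3′ UTR of each member's longest protein-coding transcript in the GENCODE M21 annotation. A 7mer-m8 match pairs with seed bases 2 to 8, and an 8mer match adds an A opposite base 1. The let-7g 8mer is CTACCTCA, the miR-29 8mer is TGGTGCTA and the miR-148a 8mer is TGCACTGA, and each 8mer holds the 7mer within it. Tet3 was the 1 member of 6 with a let-7g match of either length, an 8mer at bases 2706 to 2713 of a UTR of 5669 bases, where 13.7% of the 416 tested genes with a UTR within 20% of that length held the same 8mer. Dnmt1 had 1 match to miR-148a, an 8mer at bases 23 to 30 of a UTR of 312 bases, where 0.840% of 714 tested genes of like UTR length held one. The following stretches show these matches and the miR-29 matches in Dnmt3a, Dnmt3b and Tet3, the members called higher in KO_siCtrl than in WT_siCtrl, with the match in capitals.
Tet3, let-7g 8mer: tacatgtataacCTACCTCAaatctgtcac
Tet3, first miR-29 8mer: tagtctaataaaTGGTGCTAtggtgtttca
Tet3, last miR-29 8mer: gccgcttttagtTGGTGCTAaacttctccc
Dnmt3a, first miR-29 8mer: aggggaggtagcTGGTGCTAgcaccagggt
Dnmt3a, last miR-29 8mer: ggggtcccaagcTGGTGCTAattcctctca
Dnmt3b, miR-29 7mer-m8: agtagcccggcaTGGTGCTcatgttctct
Dnmt1, miR-148a 8mer: cagagccccacgTGCACTGAtgtttttaac

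Counting 7mer-m8 matches with the 8mers among them, the miR-29 seed was matched 8 times in Tet3, 7 times in Tet1, 5 times each in Dnmt3a and Tet2, once in Dnmt3b and not in Dnmt1. Among tested genes of like UTR length, at least 1 such match was held by 44.5% for Tet3, 53.5% for Tet1, 49.1% for Dnmt3a, 27.9% for Tet2 and 12.6% for Dnmt3b. At least 1 miR-29 8mer was held by 10.6% for Tet3 and 13.2% for Dnmt3a. These shares do not say how many genes held as many matches as the members. The matches of Tet1 and Tet2 are not printed. Tet2 was not called between the genotypes, and Tet1, which was not tested, was lower in KO_siCtrl than in WT_siCtrl. The UTRs of Tet1, with 7955 bases, and Dnmt3a, with 6696 bases, were long against the median of 1162 bases over the 10211 tested genes with a UTR. The miR-26a seed had 2 matches each in Tet1, Tet2 and Tet3 and 1 in Dnmt3a, the miR-22 seed 2 each in Dnmt3a and Tet1 and 1 each in Tet2 and Tet3, and the miR-101a seed 1 each in Dnmt3a and Tet2. For these members, tested genes of like UTR length held at least 1 match in 22.6% to 48.4% (miR-26a) and 27.3% to 43.2% (miR-22). For miR-101a the shares were 34.4% for Dnmt3a and 21.6% for Tet2. A match is a stretch of letters and not a shown site of action, and no microRNA was measured in these libraries.

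**Figure D1:**
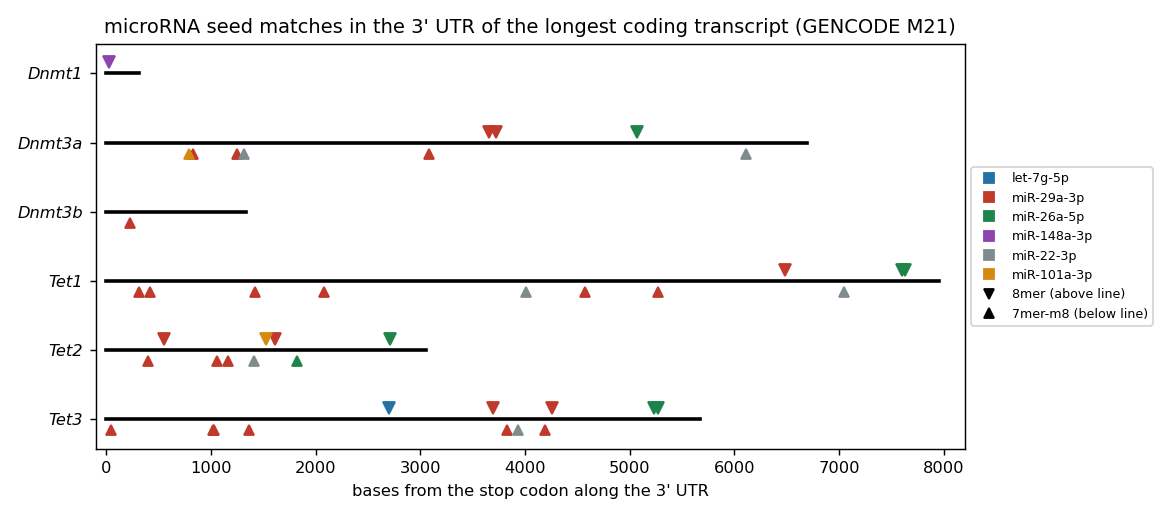
Seed matches along the 3′ UTR of the 6 members, by distance in bases from the stop codon. Each line is 1 UTR, markers above it are 8mer matches, markers below it 7mer-m8 matches, and colour gives the microRNA. The let-7g match stands in Tet3 and in no other member, and Dnmt1 has the shortest UTR, of 312 bases.

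Sequencing depth could be read in relative terms from the values of rarely sampled genes, and was 1 to 1.82 times that of the shallowest library, with KO_let-7g at 1.34 to 1.82 and the other groups between 1 and 1.57. In each library, 11032 to 11465 genes reached 1 FPKM. Of 12 mesenchymal stem cell markers, 10 were at 1 FPKM or more in every library, while Thy1 was listed at or near 0 throughout. All 7 blood and all 4 endothelial markers stayed below 1 FPKM in every library. The summed level of 4 osteoblast markers was 85.2 to 171 FPKM in WT_siCtrl and 18.5 to 22.8 FPKM over the 3 Dicer -/- groups, with Sp7, Bglap and Ibsp each below 1 FPKM on average in the latter. The sum of 4 adipocyte markers was 39.3 to 57.8 FPKM in WT_siCtrl and 19.8 to 38.2 FPKM over the Dicer -/- groups, mostly Pparg, and Adipoq averaged 4.62 FPKM in WT_siCtrl and 0.0138 in KO_siCtrl. The sum of 4 epithelial markers was 0.168 to 0.327 FPKM in WT_siCtrl and 0.351 to 1.67 FPKM in the Dicer -/- groups, with Krt8 highest, at 1.17 FPKM on average in KO_siCtrl. The 12 mesenchymal markers summed to 2573 to 3005 FPKM in WT_siCtrl and 1061 to 1440 FPKM in the Dicer -/- groups. Most of that difference lay in Col1a1 and Col1a2, at means of 778 and 1378 FPKM in WT_siCtrl and 236 and 283 in KO_siCtrl. The other mesenchymal markers went both ways, with Cd44 at 47.1 and 87.6 FPKM and Itgb1 at 418 and 333 FPKM on average in these groups. The part of these differences in the results was not tested. In RNA from whole cultures, fewer cells of a type and less RNA per cell cannot be told apart.

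In Dicer -/- against Dicer f/f cells, both with the control siRNA, Tet3, Dnmt3b and Dnmt3a rose and Dnmt1 fell, which made 3 members up and 1 down of 5 tested. Among all tested genes 54.3% were called in this comparison by limma at an adjusted p under 0.05, with 29.1% called higher and 25.2% lower. With the let-7g duplex against KO_siCtrl, Dnmt3a rose and Tet3 fell, beside 45.6% of all tested genes called, 27.5% higher and 18.2% lower. With the Nr6a1 siRNA against KO_siCtrl the same pair of genes was called, Dnmt3a higher and Tet3 lower, beside 29.4% of all tested genes, 13.2% called higher and 16.3% lower. These comparisons share the KO_siCtrl libraries, so their values are not independent of each other. Between the treatments themselves, KO_let-7g against KO_siNr6a1, Tet3 was the 1 member of 5 called, lower with let-7g, where 40.9% of tested genes were called, 27.6% higher and 13.3% lower with let-7g. Against WT_siCtrl, 2 members rose and 1 fell in KO_let-7g beside 58.2% of tested genes called, 35.3% higher and 22.8% lower. In KO_siNr6a1 against WT_siCtrl 3 members rose and 1 fell, beside 54.3% of tested genes called, 27% higher and 27.4% lower. With large parts of the table called in every comparison, the number of calls is not a result about the members, and what follows describes each of them by its levels and direction.

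**Figure D2:**
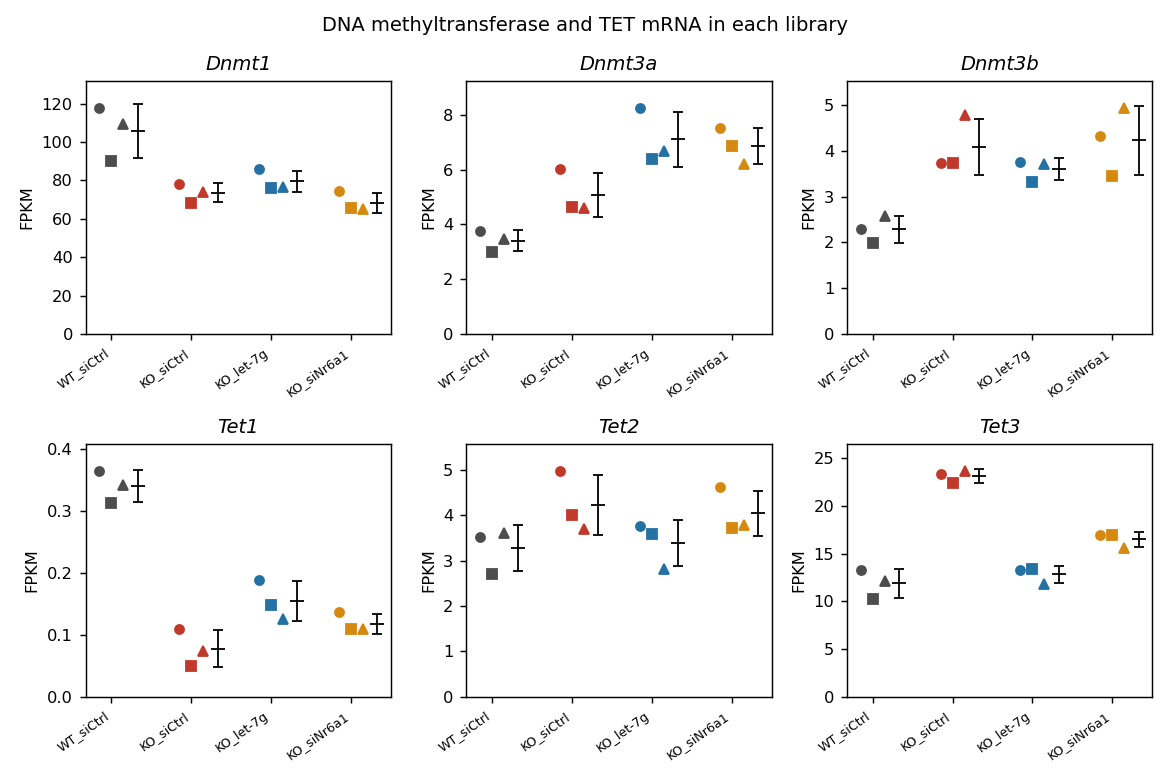
FPKM of the 6 members in each of 12 libraries, with 1 panel per gene and axes that start at 0. Circles, squares and triangles are replicates 0, 1 and 2, and the bar beside them is the mean with its SD (n = 3). Tet3 in KO_siCtrl (22.3 to 23.7 FPKM) lies above all other libraries, Dnmt1 in WT_siCtrl (90.0 to 118 FPKM) above all Dicer -/- libraries, and Tet1 stays below 0.4 FPKM.

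Dnmt1, the maintenance methyltransferase, was the most abundant member in every group. It stood at 118, 90.0 and 109 FPKM in the WT_siCtrl libraries, with a mean of 106 ± 14.2 (SD, n = 3). In KO_siCtrl it was 78.2, 68.3 and 74.1 FPKM (73.5 ± 4.94, n = 3), and every one of these was below the lowest WT_siCtrl library. The ratio of the means was 0.696, and limma gave a log2 fold change of -0.51 (SE 0.10) on the log2(FPKM + 1) scale with an adjusted p of 0.00168. Against all tested genes, Dnmt1 lay above 91.5% of them in WT_siCtrl and above 86.8% in KO_siCtrl.

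Neither treatment was called for Dnmt1 against KO_siCtrl. With let-7g the libraries held 85.9, 76.3 and 76.3 FPKM (79.5 ± 5.53, n = 3), a log2 difference of 0.11 with a 95% interval from -0.12 to 0.34 (limma adjusted p = 0.415). With the Nr6a1 siRNA they held 74.5, 65.6 and 65.3 FPKM (68.4 ± 5.23, n = 3), a log2 difference of -0.10 with an interval from -0.33 to 0.13 (limma adjusted p = 0.503). Both treated groups overlapped KO_siCtrl and lay wholly below WT_siCtrl. The order of the group means was WT_siCtrl, KO_let-7g, KO_siCtrl and KO_siNr6a1, and only the step from WT_siCtrl to its neighbour KO_let-7g was called (log2 difference -0.40, limma adjusted p = 0.00679, and 0.0501 with library weights). KO_siNr6a1 differed from WT_siCtrl by -0.61 (limma adjusted p = 0.000476). Between the treatments the libraries did not overlap, with every let-7g library higher, yet the log2 difference of 0.21 was not called (limma adjusted p = 0.125), while with the replicate number as a block it was (adjusted p = 0.0166).

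The genes that work beside Dnmt1 did not all follow it. Of 8 maintenance partners, 2 fell and 0 rose in KO_siCtrl against WT_siCtrl, beside 54.3% of all tested genes called. Their median log2 fold change was -0.16 where the median of all tested genes was 0.04. Uhrf1, which brings Dnmt1 to half-methylated DNA, held 76.8, 75.5 and 78.8 FPKM in WT_siCtrl and 62.4, 53.5 and 61.6 in KO_siCtrl, a log2 fold change of -0.38 (limma adjusted p = 0.00159). Cdca7l, a relative of the chromatin remodelling cofactor Cdca7, changed by -0.44 (limma adjusted p = 0.00140). Hells, the remodelling enzyme that Cdca7 activates, Pcna, the replication clamp, and Usp7, a deubiquitinase of the complex, were not called.

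With let-7g, Uhrf1 stood at 97.7, 90.4 and 94.5 FPKM, above all 9 other libraries, and Dnmt1 was not called. The log2 fold change of Uhrf1 against KO_siCtrl was 0.66 (limma adjusted p = 5.39e-05). Cdca7 went from 15.8, 17.6 and 18.8 FPKM in KO_siCtrl to 35.9, 34.9 and 38.6 in KO_let-7g, a log2 fold change of 1.03 (limma adjusted p = 7.36e-06) with no overlap. Cdca7l rose as well, by 0.56 on the log2 scale, while Uhrf2, the paralog of Uhrf1, fell from 73.2 to 92.0 FPKM in KO_siCtrl to 39.2 to 59.7 FPKM (log2 fold change -0.76, limma adjusted p = 0.00111). In all, 3 of 8 partners rose and 2 fell, beside 45.6% of all tested genes called, with a median of 0.18 where all tested genes had 0.08.

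With the Nr6a1 siRNA 2 of the 8 partners rose and 0 fell, beside 29.4% of all tested genes called. Their median was -0.02 where all tested genes had -0.06. Cdca7 rose by 0.55 (limma adjusted p = 0.000905), to 25.4, 25.5 and 26.4 FPKM. Uhrf1 rose by 0.35 (limma adjusted p = 0.00658), to 80.2, 70.3 and 75.7 FPKM. Set directly against each other, let-7g gave more Cdca7 (log2 difference 0.48, limma adjusted p = 0.00117), where every let-7g library was above every KO_siNr6a1 library. The ratio of Dnmt1 to Uhrf1 was 0.808 to 0.879 with let-7g and 0.863 to 0.933 with the Nr6a1 siRNA, against a mean of 1.24 ± 0.0378 (SD, n = 3) for KO_siCtrl and 1.37 ± 0.171 for WT_siCtrl, a description of the libraries that was not tested.

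**Figure D3:**
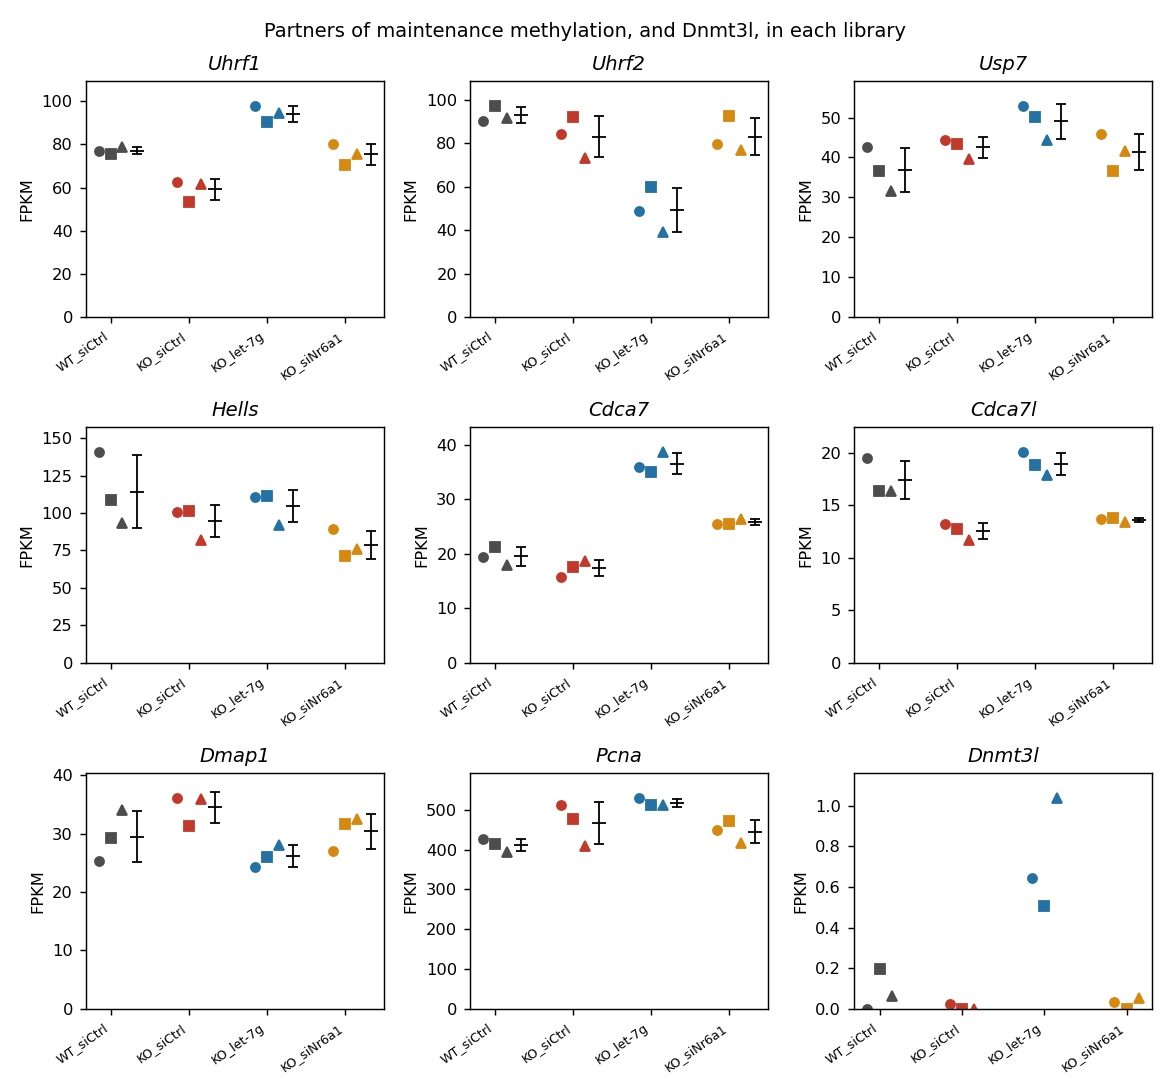
FPKM of the 8 maintenance methylation partners and of Dnmt3l in each library, drawn as for the members, without a mean for Dnmt3l, which is listed at 0 in 4 libraries. Cdca7 and Uhrf1 are highest in the 3 KO_let-7g libraries (34.9 to 38.6 and 90.4 to 97.7 FPKM), where Uhrf2 is lowest, and Dnmt3l passes 0.5 FPKM only there.

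Dnmt1, Uhrf1 and Cdca7 are known to be expressed most in dividing cells, so genes of DNA replication are given beside them. Of 29 replication genes, 6 rose and 4 fell in KO_siCtrl against WT_siCtrl, 12 rose and 3 fell with let-7g against KO_siCtrl, and 4 rose and 4 fell with the Nr6a1 siRNA. Over all tested genes 54.3%, 45.6% and 29.4% were called in these comparisons, and the called share of the replication genes was not above that except with let-7g. Their median log2 fold changes were 0.09, 0.19 and -0.05, beside 0.04, 0.08 and -0.06 over all tested genes. Single genes went both ways. In KO_siCtrl against WT_siCtrl Ccne1, which codes for cyclin E1, rose by 1.36 on the log2 scale (limma adjusted p = 3.11e-07). Gins3, of the same list, changed by -0.62 (limma adjusted p = 0.000356). Against KO_siCtrl, Ccne1 changed by 0.84 with let-7g (limma adjusted p = 2.60e-05) and by -0.59 with the Nr6a1 siRNA (0.000668). The part of cell division in the Dnmt1, Uhrf1 and Cdca7 values was not tested.

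Dnmt3a, a de novo methyltransferase, was lowest in the cells with Dicer and highest in the treated cells without it. The WT_siCtrl libraries held 3.74, 2.98 and 3.46 FPKM (3.39 ± 0.385, n = 3) and the KO_siCtrl libraries 6.02, 4.62 and 4.58 (5.07 ± 0.820, n = 3), with no overlap. The log2 fold change was 0.46 (SE 0.13, limma adjusted p = 0.00978). With let-7g the values were 8.24, 6.39 and 6.68 FPKM (7.10 ± 0.996, n = 3), and with the Nr6a1 siRNA 7.53, 6.87 and 6.21 FPKM (6.87 ± 0.658, n = 3). All 6 treated libraries exceeded the highest KO_siCtrl library.

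Dnmt3a thus moved further from WT_siCtrl under either treatment, and the step beyond KO_siCtrl was the less firm of the steps. It was 0.42 on the log2 scale with let-7g (SE 0.13, limma adjusted p = 0.0198) and 0.38 with the Nr6a1 siRNA (SE 0.13, limma adjusted p = 0.0443). With the replicate number as a block both steps kept their calls, at smaller limma adjusted p (0.00140 and 0.00384). The let-7g call for Dnmt3a was lost under median of ratios scaling (adjusted p = 0.0548) and quantile scaling (0.119), and when replicate 1 (0.0682) or 2 (0.0687) of KO_siCtrl or replicate 0 of KO_let-7g (0.0841) was left out. The Nr6a1 siRNA call was lost under 11 of 23 other settings. These were no filter (0.0845), library weights (0.114), the 2 groups alone (0.0647), and leaving out KO_siCtrl replicate 1 (0.130) or 2 (0.133), WT_siCtrl replicate 2 (0.0514), KO_let-7g replicate 1 (0.0506) or 2 (0.0544), or KO_siNr6a1 replicate 0 (0.135), 1 (0.101) or 2 (0.0548). Against WT_siCtrl the log2 fold changes of 0.88 with let-7g (limma adjusted p = 0.000145) and 0.84 with the Nr6a1 siRNA (0.000209) kept their calls in all 23 settings. Between the treatments Dnmt3a was not called, with a log2 difference of 0.04 and a 95% interval from -0.24 to 0.32 (limma adjusted p = 0.837). The order of the means was KO_let-7g, KO_siNr6a1, KO_siCtrl and WT_siCtrl, and the first 2 are not told apart by their spread.

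Dnmt3b, the other de novo enzyme, rose in the cells without Dicer and stayed there under both treatments. It held 2.30, 1.98 and 2.57 FPKM in WT_siCtrl (2.28 ± 0.294, n = 3) and 3.74, 3.73 and 4.78 in KO_siCtrl (4.08 ± 0.607, n = 3). No library overlapped, and the log2 fold change was 0.63 (SE 0.13, limma adjusted p = 0.00164). With let-7g it was 3.76, 3.33 and 3.72 FPKM (3.60 ± 0.236, n = 3), and with the Nr6a1 siRNA 4.32, 3.45 and 4.94 FPKM (4.24 ± 0.749, n = 3). All 9 Dicer -/- libraries lay above all WT_siCtrl libraries and overlapped among themselves.

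The order of the Dnmt3b means was KO_siNr6a1, KO_siCtrl, KO_let-7g and WT_siCtrl, and only the last step was called. KO_let-7g exceeded WT_siCtrl by 0.49 (limma adjusted p = 0.00673) and KO_siNr6a1 exceeded it by 0.67 (0.00107). Against KO_siCtrl the log2 difference was -0.14 with let-7g, with an interval from -0.42 to 0.14 (limma adjusted p = 0.408), and 0.04 with the Nr6a1 siRNA, with an interval from -0.24 to 0.32 (0.852). Together Dnmt3a and Dnmt3b remained far below Dnmt1 in FPKM: Dnmt1 was 18.1 to 19.5 times their sum in WT_siCtrl, 7.91 to 8.19 times in KO_siCtrl, 7.16 to 7.85 times with let-7g and 5.86 to 6.35 times with the Nr6a1 siRNA. The ratio of Dnmt3a to Dnmt3b was 1.35 to 1.62 in WT_siCtrl, 0.957 to 1.61 in KO_siCtrl, 1.79 to 2.19 with let-7g and 1.26 to 1.99 with the Nr6a1 siRNA. Its let-7g range lay above those of both control siRNA groups and overlapped that of the Nr6a1 siRNA.

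**Figure D4:**
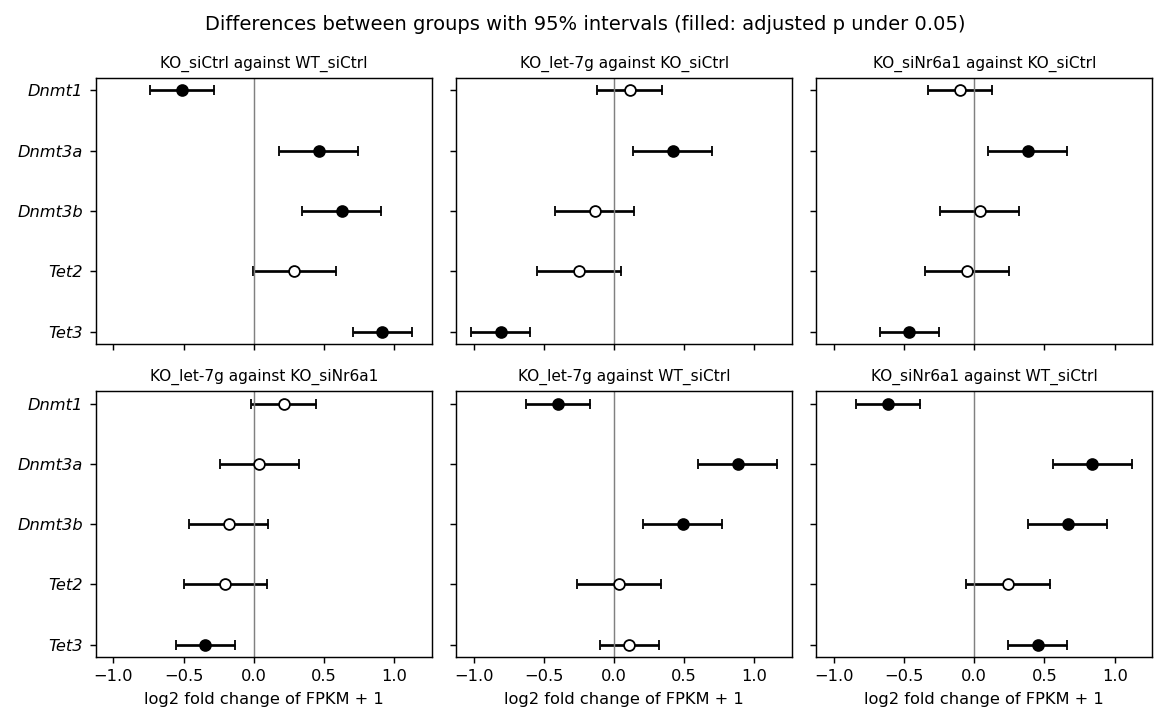
Log2 fold change of FPKM + 1 of the 5 tested members in 6 comparisons, as points with 95% intervals from limma, filled where the adjusted p is under 0.05. Tet3 is to the right of 0 in KO_siCtrl against WT_siCtrl (0.91) and to the left under both treatments (-0.81 and -0.46), while Dnmt3a is to the right in all 3.

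Of 9 listed partners of the de novo enzymes 7 were tested. In KO_siCtrl against WT_siCtrl 3 rose and 2 fell, beside 54.3% of all tested genes called, with a median of 0.09 where all tested genes had 0.04. Zfp57, a zinc finger protein that protects imprints, held 2.40 to 4.23 FPKM in WT_siCtrl and 6.30 to 8.96 in KO_siCtrl, a log2 fold change of 0.94 (limma adjusted p = 0.00342). Setdb1, a histone H3 lysine 9 methyltransferase, rose from 22.2 to 22.6 FPKM to 39.8 to 42.8 FPKM (0.85, limma adjusted p = 5.07e-05). Trim28, the corepressor that links the pair, rose by 0.30 (limma adjusted p = 0.0153), a call lost with the 2 groups alone (0.0557) or without KO_siCtrl replicate 2 (0.0626) or WT_siCtrl replicate 0 (0.0532). Nsd1, a histone H3 lysine 36 methyltransferase, changed by -0.76 (limma adjusted p = 9.86e-05). Under let-7g 0 rose and 1 fell, Setdb1, by -0.41 (limma adjusted p = 0.00781), and under the Nr6a1 siRNA 0 of 7 were called. Over all tested genes 45.6% and 29.4% were called in these 2 comparisons.

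Dnmt3l, the inactive partner of Dnmt3a, was below the level set for testing. The KO_let-7g libraries held 0.646, 0.507 and 1.04 FPKM. In the other 9 libraries the highest value was 0.196 FPKM, in WT_siCtrl replicate 1, and 4 libraries were listed at 0. With the lower limit of 0.3 FPKM in at least 3 libraries, the log2 fold change of Dnmt3l was 0.77 against KO_siCtrl (limma adjusted p = 0.000180) and 0.74 against KO_siNr6a1 (0.000343). Because Dnmt3l passes that limit only through the let-7g libraries, these p-values describe the gene and do not stand as support.

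Tet3 was the most abundant TET gene and, of the 5 tested members, the one with the largest log2 fold change between KO_siCtrl and WT_siCtrl. It held 13.3, 10.2 and 12.1 FPKM in WT_siCtrl (11.9 ± 1.54, n = 3) and 23.4, 22.3 and 23.7 in KO_siCtrl (23.1 ± 0.690, n = 3), 1.95 times as much. The log2 fold change was 0.91 (SE 0.095, limma adjusted p = 1.39e-05), and no library overlapped. Among all tested genes Tet3 stood above 41.2% of them in WT_siCtrl and above 59.7% in KO_siCtrl.

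Tet3 fell with both treatments, and further with let-7g. With let-7g it held 13.3, 13.3 and 11.8 FPKM (12.8 ± 0.891, n = 3), a log2 fold change of -0.81 against KO_siCtrl (SE 0.095, limma adjusted p = 6.16e-05). With the Nr6a1 siRNA it held 17.0, 17.0 and 15.6 FPKM (16.5 ± 0.792, n = 3), a log2 fold change of -0.46 (SE 0.095, limma adjusted p = 0.00442). The 3 groups of Dicer -/- libraries did not overlap one another for Tet3. The direct difference between the treatments was -0.34 (limma adjusted p = 0.0140), and its call was lost without KO_let-7g replicate 2 (adjusted p = 0.0566).

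Against WT_siCtrl, Tet3 with let-7g differed by 0.11, with a 95% interval from -0.10 to 0.32 (limma adjusted p = 0.360), and the libraries overlapped. With library weights the difference was 0.25 and was called (adjusted p = 0.0219). With the Nr6a1 siRNA it stayed above WT_siCtrl by 0.45 (limma adjusted p = 0.00198), with no overlap. The order was therefore KO_siCtrl, KO_siNr6a1, KO_let-7g and WT_siCtrl, in which all steps but the last were called. Tet3 is the member with the let-7g 8mer printed above, and the part of that match in the change was not tested. Nr6a1 itself held 0.945 to 1.25 FPKM in WT_siCtrl and 10.2 to 12.6 FPKM in KO_siCtrl. It held 3.39 to 5.38 FPKM with let-7g and 3.31 to 4.30 with its own siRNA, and its part was not tested either.

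Tet2 was not called in any of the 6 comparisons. It held 3.53, 2.70 and 3.60 FPKM in WT_siCtrl (3.28 ± 0.497, n = 3) and 4.98, 4.0 and 3.70 in KO_siCtrl (4.23 ± 0.666, n = 3), which did not overlap. It held 3.77, 3.59 and 2.80 FPKM with let-7g (3.39 ± 0.514, n = 3) and 4.61, 3.72 and 3.79 with the Nr6a1 siRNA (4.04 ± 0.497, n = 3). The order of the means was that of Tet3, but the libraries of neighbouring groups overlapped at each step. KO_siCtrl exceeded WT_siCtrl by 0.29 with a 95% interval from -0.01 to 0.59 (limma adjusted p = 0.0932), and this was called with the replicate number as a block (adjusted p = 0.0353), with quantile scaling (0.0436) and with library weights (0.00746). The let-7g difference for Tet2 was -0.25, with an interval from -0.55 to 0.05 (limma adjusted p = 0.154), and it was called with quantile scaling (0.0365).

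Tet1 was at the lower end of what the libraries could show. It held 0.365, 0.313 and 0.341 FPKM in WT_siCtrl (0.339 ± 0.0260, n = 3) and 0.109, 0.0495 and 0.0741 in KO_siCtrl (0.0776 ± 0.0300), so the KO_siCtrl mean was 0.229 of the WT_siCtrl mean. The exact permutation test of 3 against 3 libraries gave its smallest possible p, 0.1, and cannot reach 0.05. With let-7g Tet1 held 0.189, 0.149 and 0.126 FPKM (0.155 ± 0.0318), above every KO_siCtrl library, and with the Nr6a1 siRNA 0.137, 0.109 and 0.109 FPKM (0.118 ± 0.0161), which overlapped KO_siCtrl. All 9 Dicer -/- libraries lay below all WT_siCtrl libraries.

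Where Tet1 was admitted by a limit of 0.3 FPKM in at least 3 libraries, which it passed only through WT_siCtrl, limma gave a log2 difference of -0.31 for KO_siCtrl against WT_siCtrl (adjusted p = 0.000812) and 0.10 for let-7g against KO_siCtrl (0.187). With no limit the Tet1 adjusted p for let-7g against KO_siCtrl was 0.0177. Because Tet1 passes the limit only through the group where it is high, these p-values describe the gene and do not stand as support. The relative depth was 1.34 to 1.82 in KO_let-7g and 1 to 1.31 in KO_siCtrl, and read numbers behind Tet1 could not be recovered from the table.

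The TET genes summed to 13.2 to 17.2 FPKM in WT_siCtrl, 26.4 to 28.4 in KO_siCtrl, 14.7 to 17.2 with let-7g and 19.5 to 21.7 with the Nr6a1 siRNA. Tet3 made up 76.7%, 84.3%, 78.4% and 79.9% of the sum on average in these groups. Tet1 was 2.20% of it in WT_siCtrl and 0.281% in KO_siCtrl. The DNMT genes summed to 111 ± 14.8 FPKM in WT_siCtrl and 82.7 ± 5.66 in KO_siCtrl (n = 3 each), of which Dnmt1 was 94.9% and 88.9%. These sums are descriptions and were not tested.

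**Figure D5:**
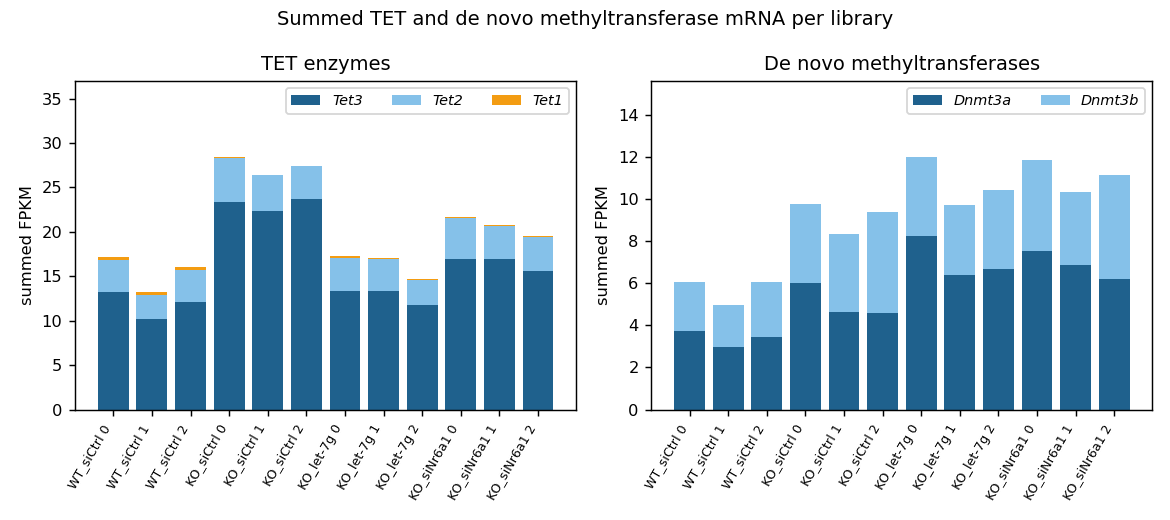
Summed FPKM of the TET genes (left) and of Dnmt3a and Dnmt3b (right) in each of 12 libraries, stacked by gene on axes that start at 0. The TET sum is 26.4 to 28.4 FPKM in KO_siCtrl and 13.2 to 17.2 FPKM in WT_siCtrl, and is mostly Tet3.

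Of 16 listed genes that act beside or after the TET enzymes 14 were tested, and in KO_siCtrl against WT_siCtrl 5 rose and 3 fell, near the 54.3% called over all tested genes. Their median log2 fold change was 0.15, beside 0.04 over all tested genes. Smug1, a DNA glycosylase, held 4.26 to 5.01 FPKM in WT_siCtrl and 10.4 to 10.9 in KO_siCtrl (log2 fold change 1.06, limma adjusted p = 2.65e-06). Cxxc5, a CXXC zinc finger protein known to bind CpG-rich DNA, rose by 1.39 and Polb, the polymerase of base excision repair, by 0.62. Gadd45a, a stress-induced gene proposed to aid demethylation, rose by 1.23 while its relatives Gadd45b and Gadd45g changed by -0.88 and -1.63. Tdg, the glycosylase that removes oxidised cytosines, was not called and held 3.44 to 6.01 FPKM in WT_siCtrl and 5.97 to 6.72 in KO_siCtrl.

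Smug1 and Gadd45a changed in opposite directions under the treatments. With let-7g against KO_siCtrl, 5 of the 14 rose and 2 fell (median 0.08, as over all tested genes, of which 45.6% were called), and Smug1 changed by -0.61 (limma adjusted p = 0.000268) and Gadd45a by 0.46 (0.0230). With the Nr6a1 siRNA, 3 rose and 3 fell (median 0.04, beside -0.06 over all tested genes, of which 29.4% were called), and Smug1 changed by 0.69 (limma adjusted p = 0.000302) and Gadd45a by -1.23 (0.000178). The direct difference, let-7g minus Nr6a1 siRNA, was -1.29 for Smug1 and 1.69 for Gadd45a, both called. Apex1, the endonuclease of base excision repair, rose under both, to 58.1 to 63.0 FPKM with let-7g and 97.2 to 120 FPKM with the Nr6a1 siRNA, from 34.0 to 36.4 FPKM.

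The lists that follow are read against the 54.3%, 45.6% and 29.4% of all tested genes called between genotypes, with let-7g and with the Nr6a1 siRNA, and against all-gene medians of 0.04, 0.08 and -0.06. The list of methyl-CpG readers and their relatives held 8 genes, with medians of -0.15, 0.17 and -0.16 in these comparisons. In KO_siCtrl against WT_siCtrl 1 rose, Mbd2, by 0.41 (limma adjusted p = 0.0109), and 2 fell. The 2 that fell were Zbtb38, by -0.77 (limma adjusted p = 0.00297), and Mbd3, a subunit of the NuRD repressor complex, by -0.75 (0.00152). With let-7g 2 rose and 0 fell, and with the Nr6a1 siRNA 0 rose and 1 fell, Mbd2, from 122 to 145 FPKM to 82.0 to 105 FPKM (log2 fold change -0.48, limma adjusted p = 0.00912). Of 11 methyl donor genes, with medians of 0.23, 0.09 and -0.08, 4 rose and 0 fell between the genotypes, led by Mat2a, which makes S-adenosylmethionine, at 0.46 (limma adjusted p = 0.000387). With let-7g 3 rose and 1 fell, and with the Nr6a1 siRNA 3 rose and 2 fell. Mthfd1, a folate cycle enzyme, held 14.8 to 17.0 FPKM in KO_siCtrl, 41.0 to 48.3 with let-7g and 36.1 to 40.5 with the Nr6a1 siRNA, with log2 fold changes of 1.45 (limma adjusted p = 6.74e-06) and 1.26 (5.09e-05).

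Of 11 enzymes that handle 2-oxoglutarate, 2-hydroxyglutarate, succinate or fumarate, 4 rose and 2 fell in KO_siCtrl against WT_siCtrl, 2 rose and 5 fell with let-7g, and 1 rose and 5 fell with the Nr6a1 siRNA. The called share between genotypes was near the 54.3% of all tested genes. The shares with let-7g and the Nr6a1 siRNA were above the 45.6% and 29.4% of all tested genes. The medians were 0.0016, -0.22 and -0.08, beside 0.04, 0.08 and -0.06 over all tested genes. Idh3b, a subunit of the citric acid cycle isocitrate dehydrogenase, had the order of group means seen for Tet3, at 103 to 118 FPKM in WT_siCtrl, 178 to 188 in KO_siCtrl, 124 to 136 with let-7g and 151 to 162 with the Nr6a1 siRNA. Its fellow subunit Idh3a had another order, and was highest in WT_siCtrl. Ogdh, Sdha and Fh1 of this list also had the order seen for Tet3. Ogdh averaged 44.1 FPKM in WT_siCtrl, 67.9 in KO_siCtrl, 53.0 with let-7g and 54.5 with the Nr6a1 siRNA. Between the genotypes Idh3a changed by -0.45 (limma adjusted p = 0.000955) and Idh1 by -0.74 (0.00303), and Idh3g was not called. Fh1, which clears fumarate, an inhibitor of TET enzymes, rose by 0.72 in KO_siCtrl against WT_siCtrl and changed by -0.35 with let-7g and -0.30 with the Nr6a1 siRNA, all called by limma.

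Of 18 listed germline genes that are silenced by promoter methylation in most somatic cells, 17 were in the table and 2 passed the limit for testing, Brdt and Sycp3. Both passed it through the 3 WT_siCtrl libraries, where they are high, so that their lower calls in KO_siCtrl and their counts describe these genes and support nothing. Brdt, a testis bromodomain protein, held 1.28 to 1.32 FPKM in WT_siCtrl, 0.267 to 0.322 in KO_siCtrl, 0.650 to 0.727 with let-7g and 0.165 to 0.184 with the Nr6a1 siRNA. It was called higher with let-7g against KO_siCtrl (log2 fold change 0.39, limma adjusted p = 0.00144, and 0.109 with quantile scaling). Taf7l, below the limit, held 0.371, 0.527 and 0.541 FPKM in KO_let-7g and at most 0.0746 FPKM in the other 9 libraries. DNA methylation itself was not measured.

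For each tested member the genes with the most similar pattern were found by the Pearson correlation of log2(FPKM + 1) over the 12 libraries, which share their 4 groups. For Tet3 they included Dopey2 (0.983), at 3.53 FPKM in WT_siCtrl, 7.28 in KO_siCtrl, 3.94 with let-7g and 5.07 with the Nr6a1 siRNA, and Adcy7 (0.971), an adenylate cyclase gene. For Dnmt3a they were Lman2l (0.982), Il6ra (0.978) and Slc38a9 (0.973), with Il6ra, the interleukin 6 receptor gene, at 2.24, 6.56, 15.2 and 14.2 FPKM in WT_siCtrl, KO_siCtrl, KO_let-7g and KO_siNr6a1. For Dnmt1 they were Ank3 (0.968), Nfix (0.966) and Kif5a (0.965). For Dnmt3b they were Rdh13 (0.960), Rpusd2 (0.960) and Sema4b (0.958), and for Tet2 Mgat5 (0.931), Tnrc6c (0.926) and Fam123b (0.916).

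Between members the same correlation was lowest for Dnmt1 and Dnmt3b (-0.753) and highest for Tet2 and Tet3 (0.736), followed by Dnmt3a and Dnmt3b (0.686). No member was among the 3 most similar genes of another. RefSeq's promoter windows, 300 bases around the start of transcription in GRCm38.p6, differed in CpG content. Tet2 had 57 CpG and Dnmt3b 30, Tet3 had 22 and Tet1 17, and the 3 windows each of Dnmt3a and Dnmt1 had 46, 47 and 18 and 2, 12 and 33, against a median of 7 over 32851 windows. The windows of Dnmt3l had 6, 4 and 3.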

How the data were processed

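Polyadenylated RNA of 12 libraries in 4 groups of 3 was analysed from 1 table of FPKM values deposited by the authors. The tools named in the submitters' processing notes were Cufflinks 1.0.3 and TopHat 1.2.0, with mm9 as genome build. No settings, strand use or read numbers are given in the sources used here. Overlapping genes on opposite strands therefore cannot be told apart, and strong changes of abundant genes can shift every FPKM value. Each column carried the name of 1 library.

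From the FPKM, log2(FPKM + 1) was computed and fitted with limma 3.58.1 in R 4.3.3 (lmFit, contrasts, eBayes with trend) over all 12 libraries with 1 coefficient per group. Genes entered if 3 or more libraries held an FPKM of 1 or more, with two-sided tests and Benjamini-Hochberg adjustment over all 11801 within each of 6 comparisons, called at adjusted p under 0.05. A pseudocount of 1 understates changes of low genes. The script was tested on simulated data. Exact permutation tests of 3 against 3 libraries cannot give a p under 0.1.

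The members and gene lists were chosen with earlier results of these data known. Named genes were the 6 members, the 3 genes most correlated with each tested member, and up to 4 genes with the smallest adjusted p in each list, plus others of those lists named after their values were seen. One of the genes correlated with Tet3 is not reported here. Lists covered maintenance partners, de novo partners, methyl-CpG readers, TET partners and repair, methyl donor supply, 2-oxoglutarate enzymes, germline genes and DNA replication. Same-numbered libraries deviated together in 5 of the 6 comparisons, with correlations of 0.127 to 0.465 over genes, as seen in the data and not stated in the labels, so the block of replicate numbers was fitted as an alternative. The others were pseudocounts, filters, scalings, trend, library weights, the 2 groups alone and leaving out each library. UTR and seed searches used GENCODE M21 and RefSeq tables of GRCm38, matched by gene symbol. No coordinates are given, since the build differs from mm9.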

Additional observations from a re-analysis of the deposited data

How the results depend on the processing

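Over 23 other settings, 646 of 690 member values kept their direction and their side of the threshold. Of the rest, 18 lost a call, 11 gained one and 15 changed sign. Of 2461 values for other genes, 2398 were the same and 63 lost a call. Those 2461 values came only from comparisons where the gene was called and had a leading adjusted p in its list. No call could be gained among them, and that choice favoured agreement. Some of these genes, such as Hmga2 and Mcm3, are not named above. Some calls given above, such as that of Idh3a between the genotypes, were not included. The gained calls not given above were, with library weights, Dnmt1 (0.29, adjusted p = 0.00668) and Dnmt3b (-0.32, 0.0165) in KO_let-7g against KO_siNr6a1 and Tet2 (0.31, 0.0212) in KO_siNr6a1 against WT_siCtrl, and with quantile scaling Tet2 in the same comparisons (-0.38, 0.0467, and 0.35, 0.0480). All sign changes were in differences that were not called. For Dnmt3b, KO_siNr6a1 against KO_siCtrl ran from -0.0566 to 0.152 with 1 library left out (-0.0086 without KO_siCtrl replicate 0, -0.0095 without replicate 1), and for Tet2 from -0.130 to 0.0504. For Dnmt3a, KO_let-7g against KO_siNr6a1 was -0.0041 under upper quartile, -0.0848 under median of ratios and -0.122 under quantile scaling, and -0.0601 to 0.101 with 1 library left out. KO_let-7g against WT_siCtrl was, for Tet2, -0.0296 under upper quartile, -0.0695 under median of ratios and -0.0329 under quantile scaling, and -0.0631 to 0.137 with 1 library left out, and for Tet3 -0.0219 under median of ratios scaling.

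The number of members called for KO_let-7g against KO_siCtrl, 2, was 1 under median of ratios scaling and 1 to 2 when 1 library was left out. Without a filter Tet1 was called there as well (limma adjusted p = 0.0177), which does not stand as support. For KO_siNr6a1 against KO_siCtrl, 2, it was 1 without a filter, with library weights and with the 2 groups alone, and 1 to 2 with 1 library left out. For KO_let-7g against KO_siNr6a1, 1, it was 2 with quantile scaling or the replicate block, 3 with library weights, and 0 to 1 with 1 library left out. All genes called for KO_siNr6a1 against KO_siCtrl, 3474, came to 5248 with the replicate block and 5528 with library weights. Beside the Tet2 and Dnmt1 calls given above, the replicate block changed no other member's call. In KO_siNr6a1 against WT_siCtrl the lowest same-number correlation was 0.0915, so the numbers are not taken as pairs there, and 12 of 12 libraries correlated best with their own number. The cause of these changes was not tested. Scaling also moved the share of called genes that were higher, for KO_let-7g against KO_siNr6a1 from 67.6% to 48.5%, against KO_siCtrl from 60.2% to 50.4% and against WT_siCtrl from 60.7% to 47.9% (median of ratios), and the median of all genes in the first from 0.12 to 0.003. Read numbers are unknown, so no counting limit can be set for Tet1 or Dnmt3l.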
